A study of Mus musculus with 6 samples.

Results

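Promoters of 10 cell cycle genes were followed: Myc, the D-type cyclin genes Ccnd1, Ccnd2 and Ccnd3, the kinase genes Cdk4 and Cdk6, the inhibitor genes Cdkn1a, Cdkn1b and Cdkn1c, and Rb1. They were taken as the probes, control spots aside, whose array annotation names any of these symbols with a distance to its start. This gave 317 of the 474380 probes on the arrays, for 10 of 16814 genes. All 317 passed the filters, and 9 of the 10 genes had at least 1 window of 3 or more probes within 500 bp of a central probe. Cdk6, with 7 scattered probes, had none.

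The measurement was chromatin immunoprecipitation on promoter arrays in C2C12 cells, mouse myoblasts that form myotubes once serum is lowered. Both groups carried a retroviral vector and were selected in puromycin as infected populations, so neither is a single clone. A group of 2 samples, called duplicates by the labels, expressed TEAD4 with a Flag-HA tag, and the other, 1 sample, carried the empty vector. All cells had spent 5 days in 2% horse serum before a crosslink of 10 min with 0.4% formaldehyde. The antibody was against Flag, for which the empty-vector cells supply no tagged TEAD4. Each sample was hybridised to 2 array designs, 6 arrays in all, with 4 µg of precipitated (IP) DNA in Cy5 against 4 µg of input DNA in Cy3. The promoter that drives the tagged TEAD4 and the level of the protein are not given in the sources used here, and no RNA was measured, so the labelled myotube state could not be checked against marker genes. The labels leave unsaid whether the duplicates were separate cultures. The p-values rest on the spread between duplicates, mostly as pooled over all windows of a design, and that spread may be technical.

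TEAD4 is a DNA-binding factor of the TEAD family that acts with the co-activators YAP and TAZ, and in muscle it is known for binding MCAT elements of muscle genes. The genes followed here set the choice between division and cell cycle exit. Myc is a transcription factor that drives growth. D cyclins activate the kinases CDK4 and CDK6, which phosphorylate the retinoblastoma protein encoded by Rb1 and so release E2F factors. The proteins of Cdkn1a (p21), Cdkn1b (p27) and Cdkn1c (p57) hold cyclin-dependent kinases in check, and myoblasts leave the cycle before they fuse. The comparison asks where, around these genes, tagged TEAD4 chromatin was enriched.

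All values are log2 of IP over input, centred on each array's median, so 1 is a 2-fold enrichment over input. They are levels at DNA, not expression. At the 317 probes the median IP signal was 4.52 and 5.62 times the local background in TEAD4 samples 1 and 2 and 2.47 times in the control, while input stood at 3.26, 3.38 and 6.16 times. The control IP was not well above background at 5 of the 317 probes. Across all windows the control was also wider, with an SD of 1.04 against 0.38 and 0.40 in the TEAD4 samples, and its arrays were extracted with an extended dynamic range that the TEAD4 arrays did not have. The part of these differences in any comparison with the control was not tested. The same windows are therefore given against input and against the control, and a background correction by normexp (a model of signal plus noise, on the mean spot and local background signals) is the alternative given most often. Ankrd1 and Myog, muscle genes given for scale, had highest windows of 2.11 ± 0.42 (SD, n = 2) with -0.12 in the control and 2.14 ± 0.35 (SD, n = 2) with 1.02 in the control. That of Ankrd1 was centred at -119 on 5 probes, and that of Myog far upstream at -5211 on 3 probes.

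Myc, Ccnd1 and Ccnd2 each had a window where both TEAD4 samples reached 2-fold over input. These were 3 of the 9 genes with a window, beside 5.2% of all 16511 genes. No gene among the 9 had a window 2-fold below input in both samples, which 0.327% of all genes had. Demanding that the same window also lie 2-fold over the control in both TEAD4 samples left 0 of the 9, beside 2.56% of all genes. With sample 2 alone these counts were 6 over input and 1, Myc, over both, and with sample 1 alone 4 and 0. Under normexp the count over both was 1, again Myc, and Ccnd1 and Ccnd2 no longer met the first rule.

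**Figure D1:**
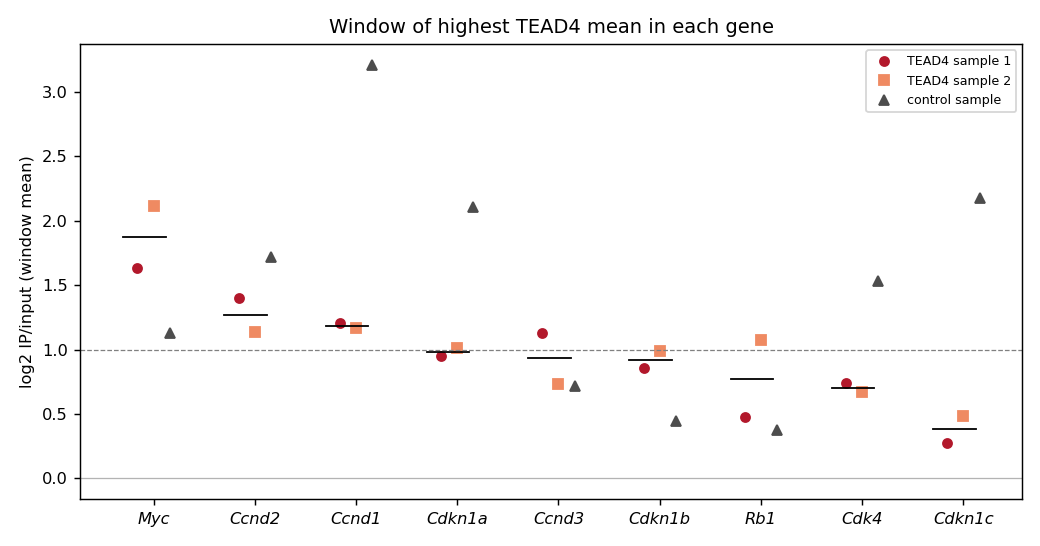
Log2 IP/input (vertical axis) in the window of highest TEAD4 mean for each of the 9 genes, with circles and squares for the 2 TEAD4 samples, triangles for the control sample, a black bar for the TEAD4 mean and a dashed line at 2-fold. Myc, Ccnd2 and Ccnd1 lie above the line in both TEAD4 samples, and only for Myc among these are both samples above the control.

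The Myc promoter region held the strongest signal of the group. On the array its highest window was centred 1050 bp downstream of the start, inside the transcribed region by the array's annotation, on chromosome 15 from 61815680 to 61816477 in the coordinates of the files, and rested on 6 probes. It read 1.64 in TEAD4 sample 1 and 2.12 in sample 2, a mean of 1.88 ± 0.34 (SD, n = 2) or 3.67-fold over input. The control read 1.13 in the same window, below both TEAD4 samples but itself more than 2-fold over input. By size of the TEAD4 mean this window ranked 128 of 16511 genes.

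At those Myc probes, before any ratio was taken, IP stood at 14.4 and 16.6 times the local background in the TEAD4 samples and at 4.40 times in the control, while input stood at 4.63, 3.96 and 9.78 times. With normexp the TEAD4 mean was 1.76 and the control 0.0096, so the difference between them grew from 0.75 to 1.75. Without centring the control was 0.57 and the difference 1.31. The order turned with 1000 bp windows: around the same probe, over 12 probes, the TEAD4 samples read 1.14 and 1.35 and the control 1.49. Both TEAD4 samples were above the control at this place in 8 of the 9 settings with a window there. Limma's test against input gave an adjusted p of 2.91e-05 for the gene, with this its window of lowest p (SE 0.16).

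The 2-fold rule was passed by 7 neighbouring Myc windows, centred from 701 to 1558 bp downstream, and neighbours among them share probes. Toward the downstream end the TEAD4 samples read 1.15 and 1.14 and the control 1.83. At the start itself the pattern was the reverse. The control's own highest window, centred at position -300, read 2.22, where the TEAD4 samples read 0.75 and 0.48. There limma gave a TEAD4 minus control difference of -1.61 (SE 0.26), and its adjusted p for the gene was 0.00115. Under normexp, however, the TEAD4 mean at that window was 0.53 and the control 0.42, and the direction turned. A separate stretch of Myc far upstream differed between the duplicates: in the window at position -3759, sample 1 read -0.087 and sample 2 read 1.14, with 0.20 in the control, so it did not meet the rule.

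**Figure D2:**
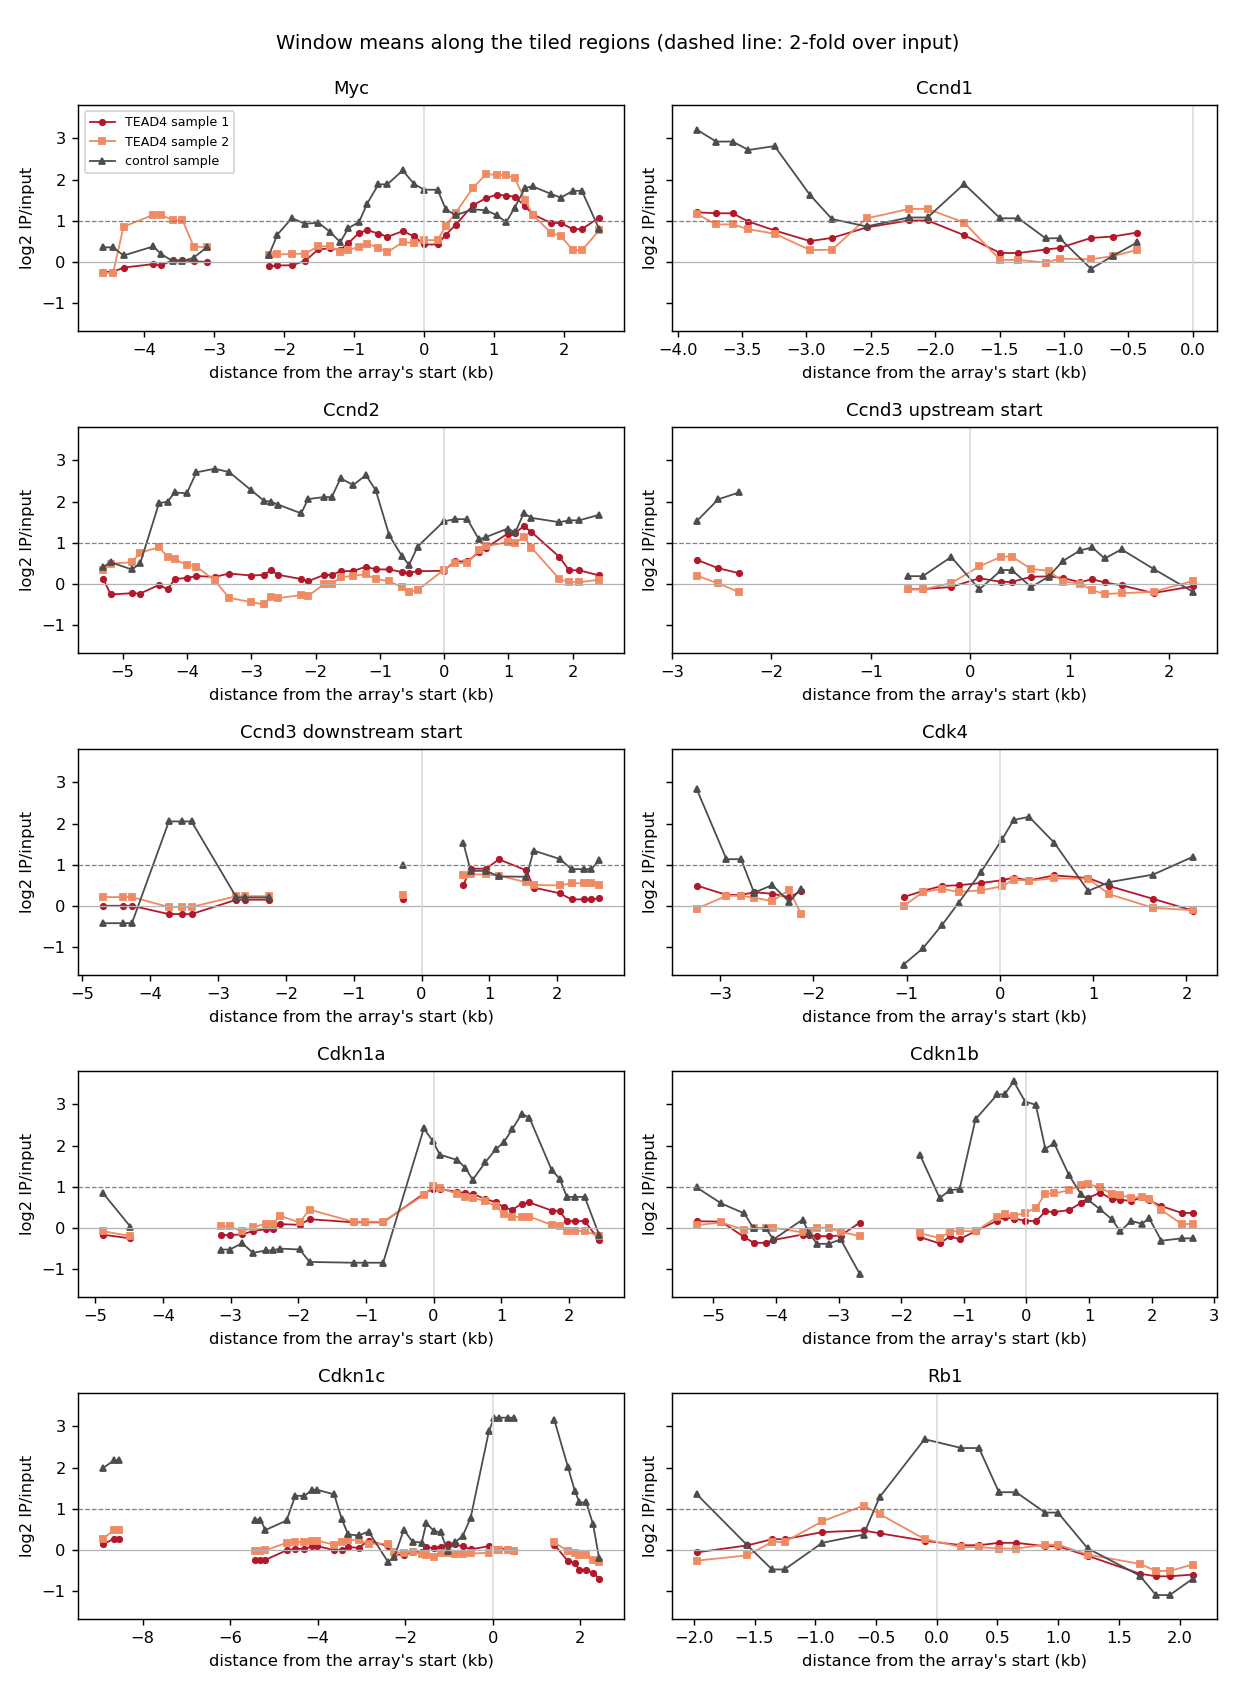
Window means of log2 IP/input (vertical axis) against the distance of the window's central probe from the start the array gives (horizontal axis, kb), for the 9 genes, with Ccnd3 split into its upstream and downstream starts; lines join windows at most 700 bp apart, colours are the 2 TEAD4 samples and the control sample, and the dashed line is 2-fold. In Myc the TEAD4 samples peak 1050 bp downstream while the control peaks at position -300; at the control's peaks by the starts of Cdkn1b and Rb1 the TEAD4 samples lie between 0.22 and 0.29.

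Of the D cyclins, Ccnd2 and Ccnd1 met the rule, and their highest TEAD4 means did not differ beyond the spread of the duplicates. Ccnd2 was the higher by a little here, Ccnd1 with 250 bp windows (1.54 and 1.46 in the samples, against 1.37 and 1.36) and with sample 2 alone (1.29 against 1.14). The highest window of Ccnd2, 1238 bp downstream of the start on chromosome 6 from 127115289 to 127115706, rested on 4 probes and read 1.40 and 1.14 in the TEAD4 samples, a mean of 1.27 ± 0.19 (SD, n = 2). The control read 1.72 there, above both TEAD4 samples, but its IP stood at only 1.98 times the local background. Limma's adjusted p against input was 0.00153. With normexp the TEAD4 samples read 0.79 and 0.77 and the control 0.23, so the 2-fold call ended and the order of the groups turned. The control's highest window of Ccnd2 lay elsewhere, at position -3571, with 2.80 against 0.17 and 0.083 in the TEAD4 samples. At 1 of its 4 probes the control IP was not well above background. Under normexp the control there was 0.49 and the TEAD4 mean -0.16.

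Ccnd1, whose cyclin D1 is the classic growth factor target of the family, was probed only upstream. Its 20 probes ran from position -5321 to -431, so its start was not measured. The highest window, at position -3852 on chromosome 7 from 144752743 to 144753197 with 4 probes, read 1.20 and 1.16 in the TEAD4 samples, a mean of 1.18 ± 0.028 (SD, n = 2). The control read 3.21 in that same window, which was also its own highest. With limma the adjusted p against input was 0.000975, and under normexp the TEAD4 mean was 0.63 and the control 1.08. A pair of windows that share all their probes, at -2204 and -2059, gave 1.00 and 1.29 in the TEAD4 samples and 1.08 in the control, so there the samples did not separate.

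Ccnd3, the D cyclin that rises as myoblasts differentiate, did not meet the rule. The array gives it a pair of starts, 88.417 kb apart, and RefSeq (GRCm38.p6) lists a pair 88.416 kb apart. Near the downstream start the highest window, 1140 bp inside on chromosome 17 from 47057360 to 47058230, read 1.13 and 0.73 in the TEAD4 samples and 0.72 in the control (0.93 ± 0.28, SD, n = 2; 4 probes; limma adjusted p against input 0.00593). Sample 2 lay at the level of the control there and sample 1 above it. The gap to the control was wider under normexp, with 1.08 and 0.69 against 0.044, and without centring, with 1.14 and 0.73 against 0.16. With 1000 bp windows around the same probe the order turned, with 0.71 and 0.65 against 1.06. With at least 5 probes a window this window of 4 probes fell out, and the highest TEAD4 mean of Ccnd3, at 2038, was 0.40. Near the upstream start the highest window was at -2752, with 0.58 and 0.20 in the TEAD4 samples and 1.52 in the control. The 250 bases before each RefSeq start are shown because they differ in the MCAT core, the hexamer CATTCC that TEAD factors recognise, which is printed in capitals wherever it or its reverse complement GGAATG occurs.

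Ccnd3, upstream start, chr17:47504801-47505050, plus strand: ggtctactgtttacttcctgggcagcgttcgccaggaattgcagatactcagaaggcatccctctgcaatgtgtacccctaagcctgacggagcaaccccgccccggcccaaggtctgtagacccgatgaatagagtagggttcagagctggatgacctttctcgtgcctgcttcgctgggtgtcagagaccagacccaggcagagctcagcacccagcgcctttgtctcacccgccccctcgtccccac
Ccnd3, downstream start, chr17:47593217-47593466, plus strand: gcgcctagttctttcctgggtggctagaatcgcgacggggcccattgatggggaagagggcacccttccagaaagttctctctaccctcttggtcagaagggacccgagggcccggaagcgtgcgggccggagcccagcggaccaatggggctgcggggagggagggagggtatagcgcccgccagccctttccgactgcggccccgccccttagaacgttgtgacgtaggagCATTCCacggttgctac

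The downstream start carried 1 copy of CATTCC, at positions -17 to -12 from the start, and the upstream start none. Neither held the AP-1 motif TGANTCA. On both strands, CATTCC occurred in 12.6% and TGANTCA in 6.75% of all 32851 promoters of that length in the RefSeq table. These are matches of letters only, in a genome build that need not be that of the probes. The highest window of Ccnd3 lay downstream of the start with the match, outside the stretch printed.

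The kinase genes were lower. Cdk4, whose protein is the catalytic partner of D cyclins, reached 0.74 and 0.67 in the TEAD4 samples and 1.53 in the control, 582 bp downstream of its start on chromosome 10 from 126466687 to 126467533 (0.70 ± 0.052, SD, n = 2; 4 probes). Both TEAD4 samples lay below the control. Limma's adjusted p against input was 0.0156, and under normexp the TEAD4 mean there was 0.63 and the control 0.12, which turned the order. The array names Cdk4 and the neighbouring gene March9 at shared divergent probes, so values upstream of Cdk4 belong to both. Cdk6, the second such kinase, had 7 probes and no window. Of these single probes the highest TEAD4 values were 0.91 in sample 1, at -2571, and 0.61 in sample 2, at 671. The control ranged from -0.60 to 3.29 over the same probes, and no probe was 2-fold over input in either TEAD4 sample.

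Cdkn1a had its highest TEAD4 window at the start, alone among the 9 genes at the main settings. Centred at -9, on chromosome 17 from 28821273 to 28821930 with 5 probes, it read 0.95 and 1.01 in the TEAD4 samples, a mean of 0.98 ± 0.042 (SD, n = 2) or 1.97-fold over input, just under the rule. The control read 2.10, above both. Limma's adjusted p against input was 0.00246. Under normexp the TEAD4 mean was 0.92 and the control 0.40, so the TEAD4 level stayed near the same value while the order of the groups turned. Place and order also moved with the window width: with 250 bp windows the highest window of Cdkn1a was centred at 354, with 1.24 and 1.39 in the TEAD4 samples and 0.54 in the control, while the one at -9 read 0.65 and 0.55 with 3.02 in the control. The highest window of Cdk4 also lay by its start at that width, at 27, and with at least 5 probes a window, at 146, as did that of Rb1 under normexp, at -100. In both of these settings the Cdk4 window at 582 had too few probes to be formed. Signals over background at the 5 probes of the Cdkn1a window at -9 were 12.6 and 14.1 for IP in the TEAD4 samples and 3.60 in the control. Input there stood at 4.96, 5.01 and 9.19. Because the highest window sits on the start, the 250 bases before each of the RefSeq starts of Cdkn1a are given. Which of them is the array's start was not determined.

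Cdkn1a, first start, chr17:29090729-29090978, plus strand: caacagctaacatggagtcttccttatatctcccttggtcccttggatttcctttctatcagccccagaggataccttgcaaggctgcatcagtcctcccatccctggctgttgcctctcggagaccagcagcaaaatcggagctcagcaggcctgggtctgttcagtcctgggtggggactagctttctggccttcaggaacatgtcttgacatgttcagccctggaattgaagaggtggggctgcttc
Cdkn1a, second start, chr17:29093519-29093768, plus strand: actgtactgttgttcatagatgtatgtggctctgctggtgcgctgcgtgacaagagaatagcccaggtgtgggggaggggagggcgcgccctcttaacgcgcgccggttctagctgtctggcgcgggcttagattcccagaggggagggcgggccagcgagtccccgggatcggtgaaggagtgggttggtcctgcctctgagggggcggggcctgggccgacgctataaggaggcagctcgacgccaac

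Neither stretch held the MCAT core or the AP-1 motif on either strand, and so no capitals appear. The same held for the entries of Cdk4, Cdk6 and Cdkn1b. This says only that these letters are not within those 250 bases. Myc, Ccnd1, Ccnd2, Cdkn1c and Rb1 had no entry in the promoter sequences used, so theirs were not searched.

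Cdkn1b, the p27 gene, resembled Myc in position but not in size. Its highest TEAD4 window, 1180 bp downstream on chromosome 6 from 134886763 to 134887807 with 7 probes, read 0.86 and 0.99, a mean of 0.92 ± 0.090 (SD, n = 2). The control read 0.45 there, below both samples, and limma's adjusted p against input was 0.0118. At the start the groups were far apart the other way. The control reached 3.56 at position -203, its highest value in any of the 9 genes, where the TEAD4 samples read 0.23 and 0.29. In that window limma gave -3.30 (SE 0.28) for TEAD4 minus control, and its adjusted p for the gene was 2.97e-06. With normexp Cdkn1b was the only gene of the 9 still called lower than the control, and this window read 1.24 in the control against -0.018 for the TEAD4 mean.

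Cdkn1c, the imprinted p57 gene, was the lowest of the 9 by its highest TEAD4 window. That window, at -8547 in a divergent promoter shared with Slc22a18, read 0.27 and 0.48 with 2.18 in the control. Over its 40 windows TEAD4 sample 1 lay between -0.70 and 0.27 and sample 2 between -0.29 and 0.48. It was the only gene of the 9 that limma did not call higher than input. Its window of lowest p averaged -0.49, and limma's adjusted p for the gene was 0.455. Around its start the control reached 3.21, against 0.028 and -0.0029 in the TEAD4 samples. At those 5 probes IP stood at only 1.90 and 1.68 times the local background in the TEAD4 samples and 3.42 times in the control. Input stood at 1.83, 1.29 and 2.81 times, so these ratios rest on dim probes.

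Rb1, the gene of the retinoblastoma protein, differed between the duplicates. At -602 on chromosome 14 from 72060343 to 72060866 its highest window, with 3 probes, read 0.47 in sample 1, 1.08 in sample 2 and 0.37 in the control (0.77 ± 0.43, SD, n = 2; limma adjusted p against input 0.0269). Sample 1 lay near the control and sample 2 above both. With 250 bp windows none could be formed at -602, for want of 3 probes, and the highest TEAD4 mean of Rb1, at 893, was 0.14. The control's highest window at -100 read 2.69, where the TEAD4 samples read 0.22 and 0.26.

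Limma calls a gene only in the direction of its window of lowest p, so other windows of the gene can go the other way. Against input it called 8 of the 9 genes higher and 0 lower, beside 23.9% and 11.8% of all genes. Rb1, called higher, read -0.64 and -0.51 in the TEAD4 samples in its window at 1918. At an unadjusted p under 0.05 the counts were also 8 and 0. With normexp 5 of the 9 were called higher (Myc, Ccnd1, Ccnd2, Cdkn1a and Cdkn1b), and among all genes the calls went from 3954 higher and 1947 lower to 2044 and 48. A gene's highest window is taken over more windows here, with a median of 36 in the 9 genes and 25 over all genes, and the part of this in the counts was not tested. The median of the highest TEAD4 windows was 0.93 in the 9 genes and 0.40 over all genes.

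Against the control, limma called 9 of the 9 lower and 0 higher, beside 81% and 12.4% of all genes, and the counts at an unadjusted p under 0.05 were the same. That share is near the background, and it moved with the scale: with normexp 1 of the 9 was lower, with arrays scaled to a common spread 0 were, and without centring 7 were lower and Myc and Cdk4 were higher. Among all genes the calls of 2042 higher and 13377 lower became 330 and 804 with normexp, 128 and 34 with a common spread, and 8328 and 7598 without centring, which leaves in the control arrays' median log10 ratios of -0.191 and -0.166. By size, 9 of the 9 genes had a window where each TEAD4 sample was 2-fold under the control (81.9% of all genes), and 9 of the 9 had a window where the control was 2-fold over input (85.6% of all genes). Cdkn1a and Cdk4, 2 of the 9, had a window where each TEAD4 sample exceeded the control 2-fold, beside 29.9% of all genes. In these the TEAD4 samples lay near input: Cdkn1a at -1832 read 0.21 and 0.44 with -0.83 in the control, and Cdk4 at -1033 read 0.21 and -0.0048 with -1.42.

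The positions of the highest windows differed between TEAD4 and control. For Ccnd3 they belong to different starts, the TEAD4 maximum to the downstream one and the control's, 2.22 at -2327, to the upstream one. For 5 of the 9 genes (Myc, Ccnd2, Ccnd3, Cdkn1b and Cdk4) the TEAD4 maximum lay 500 to 2500 bp downstream of a start, as it did in 28.2% of all genes. It lay within 500 bp of the start in 1 of the 9, Cdkn1a, and in 33.9% of all genes. The control's maximum lay within 500 bp of the start in 4 of the 9 and in 49.1% of all genes. TEAD4 and control shared their highest window in 1 of the 9, Ccnd1, and in 13.5% of all genes. These shares were not tested, and the tiled span differs between genes.

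**Figure D3:**
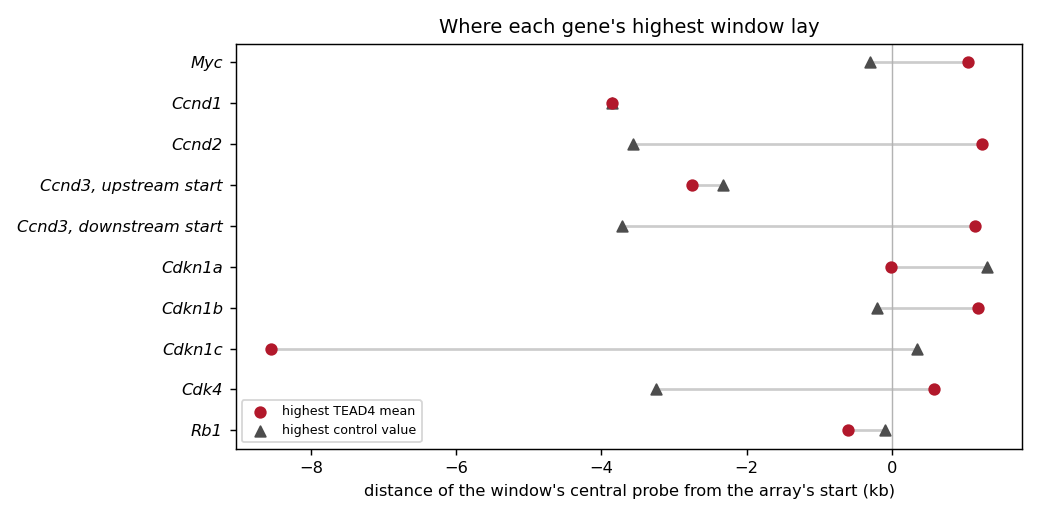
Distance (horizontal axis, kb) of the central probe of each gene's highest window from the start the array gives, with a red circle for the TEAD4 mean, a grey triangle for the control sample and a line joining them; Ccnd3 has a row for the highest windows of each of its starts. The pair coincide only in Ccnd1; in Myc, Ccnd2, the downstream start of Ccnd3, Cdkn1b and Cdk4 the circle lies downstream of the triangle and between 582 and 1238 bp past the start.

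A level that picks no window gave another order. Within 500 bp of the start, the mean of all probes could be taken for 8 of the 10 genes, since Ccnd1 and Cdk6 had fewer than 3 probes there. For Ccnd3 it pools 7 probes from both of its starts, so it is the level of neither start alone. Cdkn1a was highest, with 0.95 and 1.01 in the TEAD4 samples, a mean of 0.98 ± 0.042 (SD, n = 2) from the 5 probes of its highest window, above 97.8% of 14943 genes. Cdk4 followed at 0.55 ± 0.10 and Myc at 0.48 ± 0.076, then Ccnd2 at 0.33 ± 0.016, Ccnd3 at 0.28 ± 0.096, Cdkn1b at 0.27 ± 0.13, Rb1 at 0.24 ± 0.029 and Cdkn1c at 0.013 ± 0.022 (SD, n = 2 each). The steps from Cdkn1a to Cdk4, from Myc to Ccnd2 and from Rb1 to Cdkn1c exceeded the spread of the duplicates. Cdk4 and Myc did not differ beyond it, and neither did any neighbours from Ccnd2 to Rb1. Cdkn1a lost its lead when all probes within 1000 bp were taken: Myc was then highest at 0.73 ± 0.030, with Cdkn1a at 0.66 ± 0.11 and Cdk4 at 0.55 ± 0.086 (SD, n = 2 each). The step from Cdkn1a to Cdk4 was then barely larger than the spread of the duplicates.

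In the control the same stretches were higher and in another order. Cdkn1c was highest at 3.21, then Cdkn1b at 3.07, Rb1 at 2.69, Cdkn1a at 2.10, Myc at 1.75, Cdk4 at 1.63, Ccnd2 at 1.52 and Ccnd3 at 0.63. The medians over the 8 genes were 0.30 in TEAD4 and 1.93 in the control, beside 0.17 and 1.36 over all genes. All 8 stood higher in the control than in either TEAD4 sample on this scale, but under normexp the control was above the TEAD4 mean in only 4 of the 8, with a common spread in 5 and without centring in 7. Under normexp Cdkn1a (TEAD4 0.92, control 0.40), Myc (0.53 and 0.081), Cdk4 (0.50 and -0.037) and Ccnd3 (0.14 and -0.0042) were higher in TEAD4, while Cdkn1b (0.059 and 1.06), Cdkn1c (-0.22 and 0.67), Rb1 (0.39 and 0.58) and Ccnd2 (-0.019 and 0.20) were higher in the control. Ccnd2 and Cdkn1c thereby changed sign in TEAD4.

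**Figure D4:**
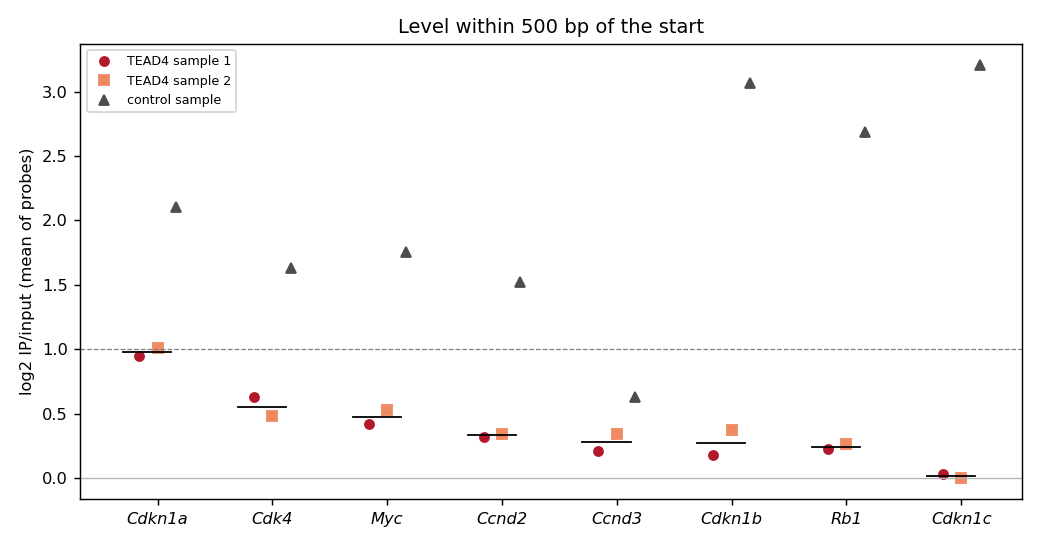
Mean log2 IP/input (vertical axis) of all probes within 500 bp of the start for the 8 genes with at least 3 such probes, with circles and squares for the 2 TEAD4 samples, triangles for the control sample and a black bar for the TEAD4 mean. Cdkn1a stands alone near the dashed 2-fold line in TEAD4, and all 8 control values lie above the TEAD4 values on this scale, as they do in 4 of the 8 genes under normexp. The value of Ccnd3 pools probes from both of its starts.

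Other genes, chiefly of the G1/S transition and of the Myc network, were read from a list of 54. It also holds genes that are not specific to these, Cdk1, Ccnh and Cdk5 among them. Of the 54, 52 had a window and Cdkn2b and Tfdp2 had no probe. Of the 52, 7 (13.5%) were 2-fold over input in both TEAD4 samples, beside 5.2% of all genes. The median of their highest TEAD4 windows was 0.61. Limma against input called 20 of the 52 higher (38.5%) and 0 lower, beside 23.9% and 11.8% of all genes, with 26 and 2 of the 52 at an unadjusted p under 0.05. Against the control it called 3 higher (5.77%: Ccnh, Cdk1 and Skp2) and 49 lower (94.2%), beside 12.4% and 81% of all genes. In the windows behind the higher calls, Ccnh read 0.25 and 0.20 in the TEAD4 samples, near input, with -1.01 in the control. Cdk1 read 0.67 and 0.77 with -1.15. Mcm7 and Ccne1 were among the 49 lower. At 126 Mcm7 read 0.92 and 1.22 with 3.01 in the control, and at 40 Ccne1 read 0.21 and 0.39 with 3.29. With normexp the calls against the control were 2 higher and 4 lower, and the 2 higher were Ccne1 and Mcm7, none of the former 3. With arrays scaled to a common spread they were 1 and 0, and without centring 19 and 33.

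Mcm7, a subunit of the replicative helicase, was the highest of the list. Its window 739 bp downstream of the start read 2.02 and 2.03 in the TEAD4 samples and 0.62 in the control, so the samples lay close together and both were more than 2-fold above the control. Skp2, a subunit of the ubiquitin ligase that marks p27 for destruction, read 1.16 and 1.80 with -0.83 in the control, 5220 bp downstream and on 3 probes. Ccne1, which encodes cyclin E1, read 1.36 and 1.32 with 0.16 in the control, at -5189 and also on 3 probes. These 3 genes (5.77% of the 52) met the rule over both input and control, beside 2.56% of all genes (422). With sample 2 alone 6 of the 52 did, and 1366 of all genes. Under normexp Mnt joined the 3.

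The other 4 passed over input alone; Cks1b no longer did so under normexp, with loess or with 250 bp windows, and under normexp E2f7 did. Cdk5, a kinase best known from neurons, read 1.44 and 1.41 with 0.44 in the control, 261 bp downstream. Mnt, a repressor that competes with Myc for its partner Max, read 1.60 and 1.19 with 1.31 in the control. Trp53, the gene of p53, which activates Cdkn1a, read 1.25 and 1.59 with 2.25 in the control, above both. Cks1b, a small partner of cyclin-dependent kinases and of Skp2, read 1.09 and 1.10 with 2.07 in the control, again above both. E2f3, Mcm2 and E2f7, chosen here after their values were seen, had high means that rest on sample 2: they read 0.57 and 2.44, 0.64 and 1.86, and 0.56 and 1.68 in samples 1 and 2.

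**Figure D5:**
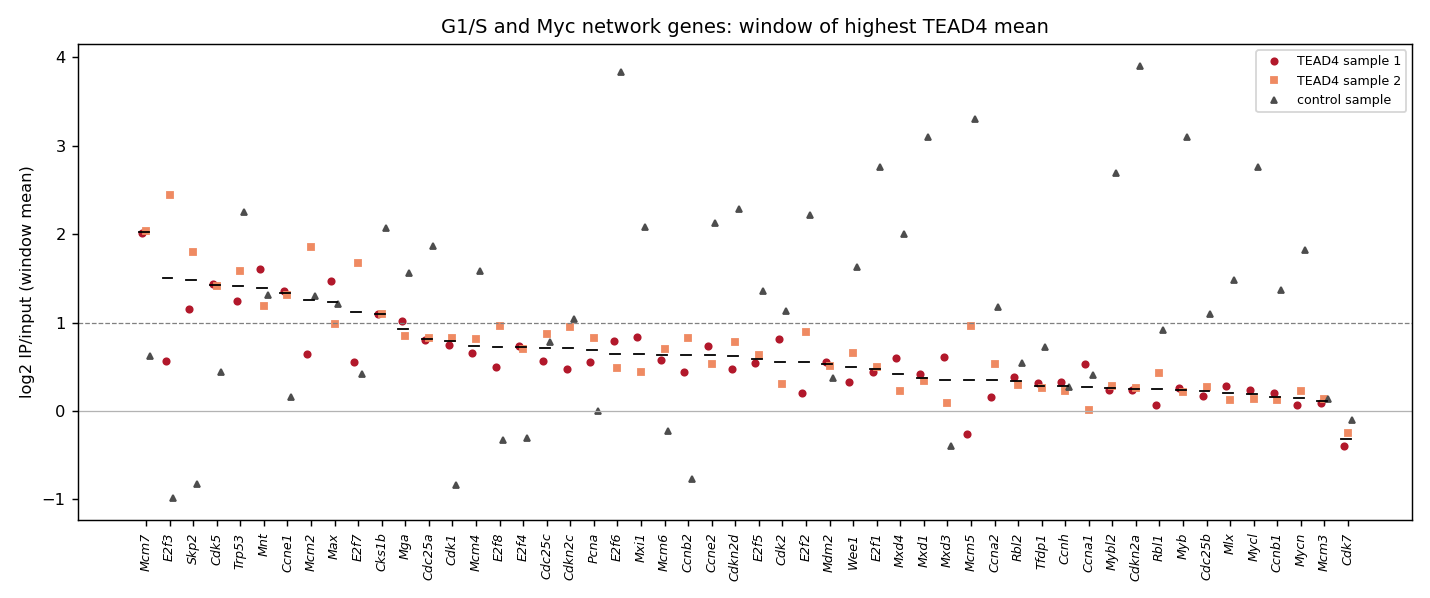
Log2 IP/input (vertical axis) in the window of highest TEAD4 mean for the 52 genes of the list, ordered by that mean (black bar), with circles and squares for the 2 TEAD4 samples, triangles for the control sample and a dashed line at 2-fold. Mcm7 leads with both samples near 2.02, while E2f3 has samples at 0.57 and 2.44.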

How the data were processed

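Precipitated and input DNA of 2 TEAD4 samples and 1 control sample were read on 6 arrays (2 designs). Agilent Feature Extraction 9.5.3.1 made the deposited intensity values, per the file headers, with extended dynamic range on the control arrays alone. Its processed intensities are background-corrected and dye-normalized. The deposited log10 ratios compare IP with input on those intensities, and the deposited series values equal them. For the probe coordinates no build is given in the sources used here.

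Each array's log2 ratio of processed IP to processed input intensity was centred on its median. Probes without a position or flagged as non-uniform were left out, keeping 236180 of 237195 probes on design 1 and 235690 of 237185 on design 2. A window is a probe with its neighbours within 500 bp, at least 3 probes, averaged. There were 428020 windows and 16511 genes with one or more. RefSeq names of GRCm38.p6 replaced the 16839 array symbols through an accession (16449), the symbol (217) or a synonym (115), and 58 stayed as in the files. An old array symbol is given in brackets.

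The size rule asks for 2-fold in both TEAD4 samples. Limma 3.58.1 (R 4.3.3) was run per design on all windows, with a Simes p per gene and Benjamini-Hochberg adjustment over all genes, two-sided at 0.05. Each adjusted p is thus of a gene, while the direction, difference and SE are those of its window of lowest p. The fit has 1 residual degree of freedom and 13.4 or 13.9 prior ones, and assumes the control varies like the TEAD4 samples. Limma was tested on simulated data in which the control had the spread of the TEAD4 samples, so that test cannot speak for the wider control here. The level near a start is the mean of at least 3 probes within 500 bp, pooled where a gene has several starts. The number of arrays limits the precision. Named genes were the 10 genes, the genes of the G1/S and Myc list that met the size rule, the 3 genes nearest in value to Myc, Ccnd1 and Cdkn1a, and Ankrd1 and Myog; others are said to be chosen later. The genes and lists were chosen with earlier results of these data known. Alternatives were normexp with offset 50, loess, a common median absolute deviation, no centring, windows of 250 or 1000 bp, 5 probes, dim probes left out, 1.5-fold and 3-fold, and leaving out a TEAD4 sample. Those on the G1/S and Myc list were added after seeing the data.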

Additional observations from a re-analysis of the deposited data

How the results depend on the processing

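No paired analysis was possible because the control has 1 sample and so shares fewer than 2 replicate numbers with TEAD4. Limma was not run without a TEAD4 sample, since no residual degree of freedom is left. Myc met the size rule over input under 13 of 13 settings, Ccnd2 under 10 and Ccnd1 under 9. Cdkn1a met it under 4, Ccnd3 and Cdkn1b under 3, Cdk4 and Rb1 under 1 and Cdkn1c under 0. The 13 include the main setting. A gene that met the rule there had to meet it at 1.5-fold and with 1 TEAD4 sample left out. Cdk4 met it only at 1.5-fold and Rb1 only without sample 1. The count of 3 genes over input was 1 with normexp, 1 with 1000 bp windows, 1 at 3-fold, 6 with a common spread, 7 at 1.5-fold, and 4 to 6 when 1 TEAD4 sample was left out (6 without sample 1). The count of 0 over input and control was 1 (Myc) with normexp, without centring or with 250 bp windows, 2 (Myc and Cdkn1b) with a common spread or at 1.5-fold, and 0 to 1 when 1 TEAD4 sample was left out (1, Myc, without sample 1). For the limma calls over input the 8 higher became 5 with normexp. Against control the 0 higher became 1 (Cdk4) with loess or 250 bp windows and 2 without centring, and the 9 lower became 1 with normexp and 0 with a common spread. The median level near the start, 0.30, was 0.38 with loess, 0.45 with a common spread and 0.47 within 1000 bp of the start. The level of Ccnd2 turned to -0.019 with normexp, and that of Cdkn1c to -0.22 with normexp, -0.032 within 1000 bp and, when 1 TEAD4 sample was left out, lay from -0.0029 (without sample 1) to 0.028. Over the settings the mean of the highest TEAD4 window, wherever it then lay, ranged from 1.33 to 2.82 for Myc. It ranged from 0.64 to 1.73 for Ccnd1, 0.78 to 1.86 for Ccnd2, 0.40 to 1.41 for Ccnd3 and 0.57 to 1.06 for Cdk4. The range was 0.68 to 1.47 for Cdkn1a, 0.76 to 1.34 for Cdkn1b, 0.16 to 0.55 for Cdkn1c and 0.14 to 1.16 for Rb1. In the place of the main highest window, both TEAD4 samples stood above the control in 8 of 9 settings for Myc, 8 of 9 for Cdkn1b, 6 of 7 for Ccnd3, 4 of 7 for Rb1, 3 of 8 for Ccnd2, 2 of 9 for Cdkn1a, 2 of 7 for Cdk4, 1 of 7 for Ccnd1 and 0 of 7 for Cdkn1c. The cause of these changes was not tested.

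For the G1/S and Myc list, the 7 over input became 12 with a common spread, 4 with 5 probes, 15 at 1.5-fold, 1 (Mcm7) at 3-fold and 9 to 10 without a TEAD4 sample. The 3 over input and control became 7, 1, 6 and 0 under the same 4 settings and 3 to 6 without a TEAD4 sample (6 without sample 1). Limma's 20 over input became 10 with normexp and 13 with 250 bp windows. Its 0 below input became 1 with normexp, 2 with loess, 1 with 250 bp windows, 5 with 1000 bp windows and 1 with 5 probes. Its 3 above the control became 6 with loess, 1 with a common spread, 19 without centring, 8 with 250 bp windows and 5 with 5 probes, and its 49 below became 4 with normexp and 0 with a common spread.

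Among all genes the 858 over input ranged from 129 at 3-fold to 3335 at 1.5-fold, with 554 under normexp, 2522 with a common spread, 368 with 1000 bp windows and 1331 to 2566 without a TEAD4 sample. The 422 over input and control were 1494 with a common spread, 161 with 1000 bp windows, 265 with 5 probes, 1506 at 1.5-fold, 68 at 3-fold and 640 to 1366 without a TEAD4 sample. The limma calls above the control were 3430 with loess, and those below input were 1051 with 250 bp windows. Signal over background limits the control IP, at 2.47 over the 317 probes.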

Other observations

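The genes whose highest TEAD4 window was nearest to that of Myc, by Euclidean distance over the log2 values of the 3 samples, were Mettl21a [2310038H17Rik] (distance 0.143), Syt8 (0.277) and Lmod1 (0.332). Lmod1, a leiomodin of smooth muscle, read 1.39 and 2.28 in the TEAD4 samples and 0.98 in the control; like Myc, it stood higher in sample 2 than in sample 1. For Ccnd1 the nearest were Tecrl [Srd5a2l2] (0.215), Atrn (0.238) and Trmt10a [Rg9mtd2] (0.296), all with a control above 3 on the log2 scale. For Cdkn1a they were Chac1 (0.0768), Natd1 [Gtlf3b] (0.111) and Pml (0.117). Chac1, a glutathione-degrading enzyme of the stress response, read 0.92 and 1.01 with 2.17 in the control, and Pml, which encodes the scaffold of PML nuclear bodies, read 0.89 and 1.07 with 2.02. These are likenesses of 3 values each, picked among 16511 genes.

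Across the windows of a gene the duplicates followed each other most closely in Cdkn1a, with a correlation of 0.89, and least in Ccnd2, with 0.45, over 32 and 40 windows that share probes. This describes neighbouring windows on the same arrays and has no test.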
